A study of Arabidopsis thaliana with 12 samples.

Results

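The genes described here encode the acidic proteins of the ribosomal stalk in Arabidopsis thaliana, 10 loci in all, of which 3 encode P0, 3 encode P1 and 4 encode P2. As a family they were selected on the signals of the *sahy1* mutant against Col-0, in which copies of P0 and P2 stood out, and the 10 copies were then taken by locus code, whatever their own values. Each has 1 probe set of its own among the 22746 non-control probe sets of the ATH1 GeneChip. A probe set is a group of short probes that together measure the transcript of a gene. Signals came from 12 arrays of root RNA in 4 groups of 3. The mutant, labelled sahy1, was set against Col-0, which is labelled as its wild type, and SAHY1OE, labelled as overexpression line 4-1 of the same gene, against Col-7, which is labelled as the wild type of that line. Seeds of all groups spent 5 d on basal medium and a further 7 d on fresh medium in upright plates, and roots were collected at 12 d with no salt or other treatment named. The study describes the arrays as biological triplicates and places the mutant's T-DNA in an exon of SAHY1 (AT2G01640), which encodes a nucleolar protein. The labels give no allele number for the mutant, which the study names *sahy1-1*, and no promoter for SAHY1OE. Each of these groups stands for a single line.

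The stalk is a flexible arm of the large ribosomal subunit. P0 anchors it to the rRNA beside the protein uL11 and carries dimers of P1 and P2, whose acidic tails recruit the GTPases that drive translation, such as the elongation factor eEF2. Plants have a further stalk protein, P3, and each class is encoded by several gene copies in Arabidopsis.

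In *sahy1* roots, the signals of 2 stalk genes stood far above those of every other group, the P0 gene AT2G40010 and the P2 gene AT3G28500. The remaining 8 genes had signals within 1.30-fold of those in Col-0. SAHY1OE against Col-7 gave no call among the 10 genes, where 0.0145% of all probe sets were called higher and 0.00723% lower. Col-7 against Col-0 gave none either, where the shares were 1.27% and 0.535%. With such shares, nothing is read from the absence of calls. The plot of signals by array shows each gene on its own scale.

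**Figure D1:**
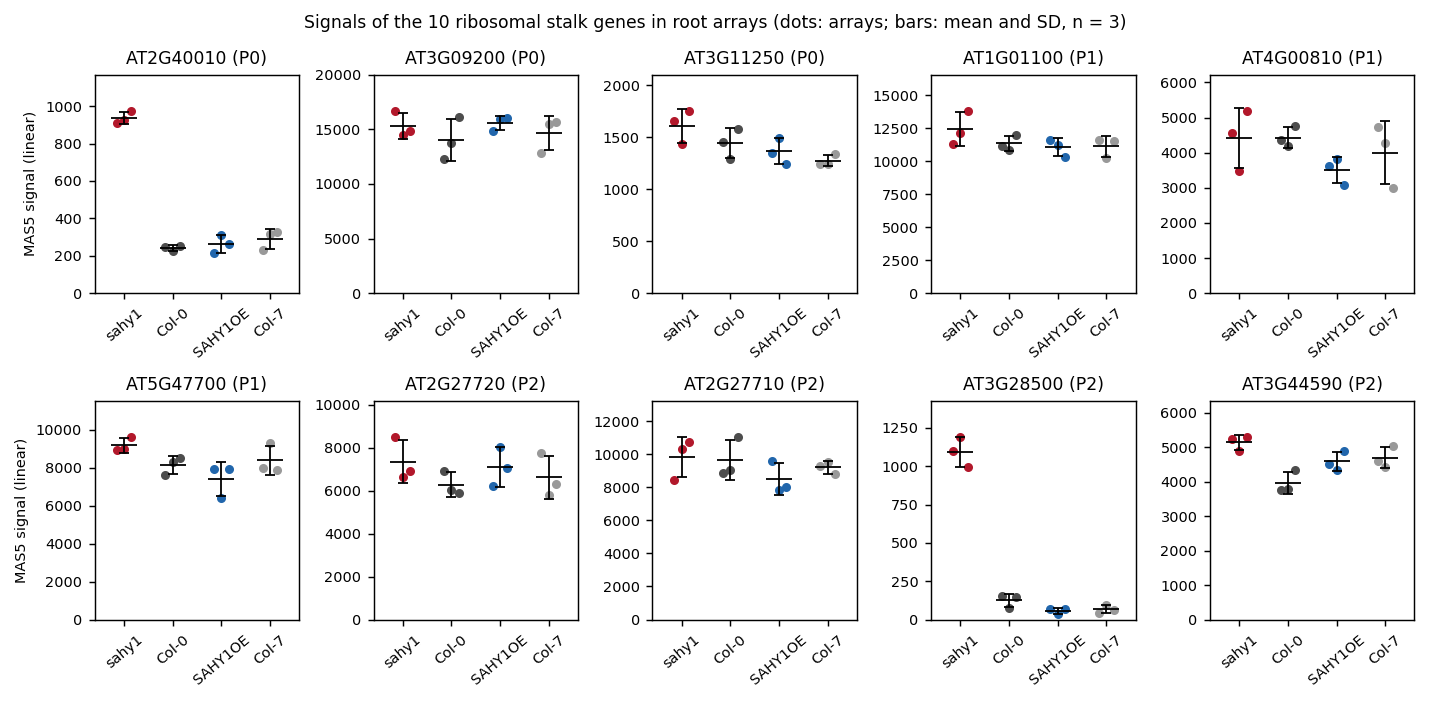
MAS5 signals (linear, vertical axes from 0) of the 10 stalk genes in *sahy1*, Col-0, SAHY1OE and Col-7 roots, with a dot for each array and bars for the mean and SD of 3 arrays. AT2G40010 and AT3G28500 are high in the 3 *sahy1* arrays only, while the groups lie close together for the other 8 genes. Each gene has its own probe set, so heights are not compared between panels.

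The signal of AT2G40010, a P0 gene on chromosome 2, was 911, 925 and 974 in the 3 *sahy1* arrays, against 247, 223 and 252 in the Col-0 arrays. It was 216, 310 and 265 in SAHY1OE, against 228, 318 and 325 in Col-7. Every *sahy1* array thus lay above every array of the other groups, and those other groups overlapped one another. The mean was 937 ± 33.2 in *sahy1* and 241 ± 15.4 in Col-0 (SD, n = 3 each), a log2 fold change of 1.96 (standard error 0.16), or 3.89-fold. Against Col-7, whose mean was 290.5 ± 53.9 (SD, n = 3), the log2 fold change of *sahy1* was 1.71 (standard error 0.16), or 3.26-fold.

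AT3G28500, a P2 gene on chromosome 3, had signals of 1101, 1189 and 993 in *sahy1*, against 156, 77.0 and 146 in Col-0. In SAHY1OE its signals were 67.6, 33.9 and 71.4, against 45.0, 93.9 and 61.2 in Col-7. The 3 *sahy1* values were again above all 9 others. The mean was 1094 ± 98.1 in *sahy1* and 126 ± 42.8 in Col-0 (SD, n = 3 each), and the log2 fold change was 3.18 (standard error 0.32), or 9.06-fold. Against Col-7, with a mean of 66.7 ± 24.9 (SD, n = 3), it was 4.10 (standard error 0.32), or 17.1-fold.

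This P2 gene was low outside the mutant. Its signal reached the 40th percentile of the array, which lay between 110 and 122, in 3 of 3 *sahy1* arrays, in 0 of 3 SAHY1OE arrays, in 0 of 3 Col-7 arrays and in 2 of 3 Col-0 arrays. It therefore passed the filter on low signals through *sahy1* alone, and a gene that passes in this way had to differ. The other 9 genes reached that percentile on all 12 arrays. After 32 was added to every signal, the ratio for AT3G28500 was 7.31-fold against Col-0 and 11.6-fold against Col-7, and that for AT2G40010 was 3.55-fold and 3.03-fold. The size of the P2 difference thus depends on how low signals are treated.

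These are descriptions without a test, because the mutant arrays led to the choice of the genes, and the study itself picked both AT2G40010 and AT3G28500 from them. The study also lists both genes as verified by RT-qPCR, a measurement that was not used here. Both comparisons of *sahy1* also share the mutant arrays. A probe set was called when its adjusted p in limma, a linear model over all probe sets, was under 0.05 and its fold above 2. By that rule, 2 of the 10 stalk genes were called higher in *sahy1* than in Col-0 and 0 lower, where 2.37% of the 13834 probe sets tested were called higher and 1.76% lower. Against Col-7 they were again 2 higher and 0 lower, where 1.34% of probe sets were called higher and 1.02% lower. With the unpaired test that the study's methods name, 1 was called higher against Col-7, AT2G40010 no longer passing. In bulk roots, fewer cells of a type and less RNA per cell cannot be told apart, and the same holds for higher signals.

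**Figure D2:**
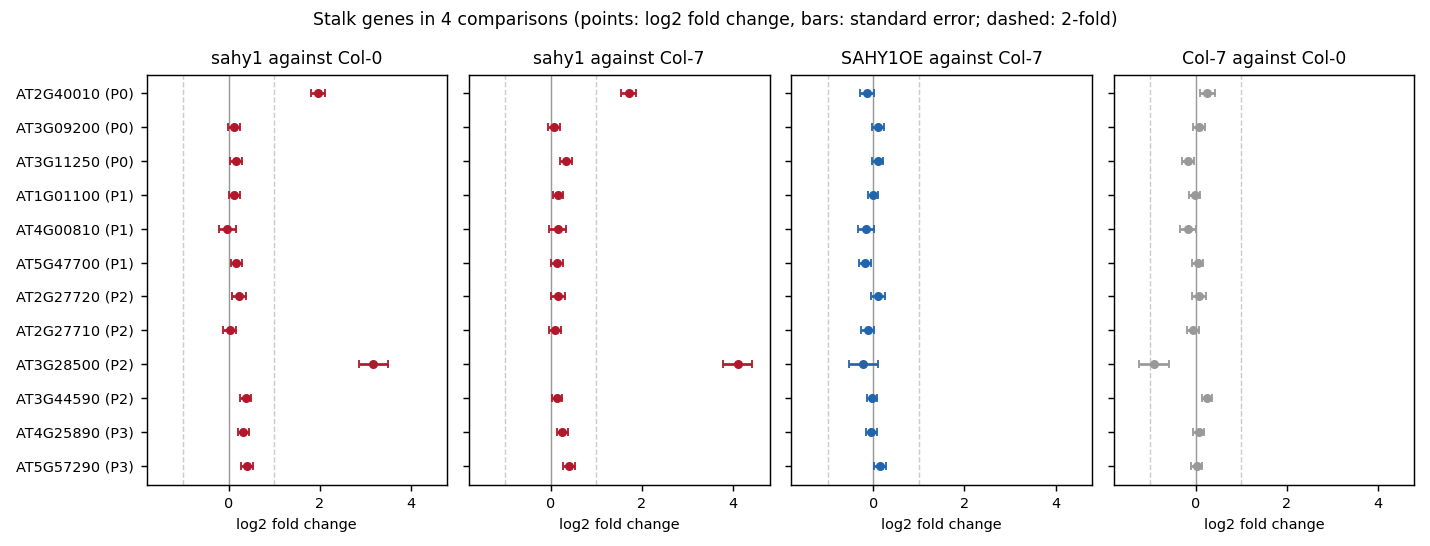
Log2 fold changes (horizontal axes) of the 10 stalk genes and the 2 P3 genes in 4 comparisons, with points for the estimates, bars for the standard error and dashed lines at 2-fold. AT2G40010 and AT3G28500 lie beyond 2-fold in both comparisons of *sahy1* and in neither of the others, and every other gene lies inside the dashed lines throughout.

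The 2 remaining P0 genes, both on chromosome 3, differed little. AT3G09200 had signals of 16672, 14435 and 14817 in *sahy1*, against 12314, 13717 and 16110 in Col-0, which overlapped (log2 fold change 0.13, standard error 0.13). AT3G11250 had signals of 1651, 1432 and 1751 in *sahy1*, against 1453, 1291 and 1582 in Col-0, also with overlap (log2 fold change 0.16, standard error 0.13). Against the Col-7 signals of AT3G11250, which were 1241, 1244 and 1337, each *sahy1* array was higher (log2 fold change 0.33, or 1.26-fold). Within the P0 class, then, the difference beyond 2-fold was seen for AT2G40010 and for neither of the other copies.

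P1 and P2 form the dimers that P0 carries. Of the 3 P1 genes, AT1G01100 had means of 12406 ± 1280 in *sahy1* and 11330 ± 598 in Col-0 (SD, n = 3 each; log2 fold change 0.13). For AT4G00810 the means were 4408 ± 858 in *sahy1* and 4429 ± 288 in Col-0 (SD, n = 3 each; log2 fold change -0.02), and this was the 1 stalk gene of 10 with a value below 0. AT5G47700 had signals of 8929, 8974 and 9595 in *sahy1*, against 7625, 8288 and 8519 in Col-0. The AT5G47700 groups did not overlap, but the difference was small (log2 fold change 0.17, or 1.13-fold). Against Col-7, the 3 P1 genes had log2 fold changes of *sahy1* between 0.13 and 0.16.

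The P2 genes other than AT3G28500 include AT2G27710 and AT2G27720, which have consecutive locus codes on chromosome 2, and AT3G44590 on chromosome 3. AT2G27710 averaged 9839 ± 1208 in *sahy1* and 9656 ± 1199 in Col-0 (SD, n = 3 each; log2 fold change 0.03), and AT2G27720 averaged 7354 ± 991 and 6277 ± 570.5 in the same groups (SD, n = 3 each; log2 fold change 0.22). The arrays of both groups overlapped for these 2 neighbouring copies. AT3G44590 had signals of 5241, 4901 and 5293 in *sahy1*, against 3769, 3791 and 4339 in Col-0. Every *sahy1* array of AT3G44590 was above Col-0 (log2 fold change 0.38, standard error 0.11, or 1.30-fold). Its Col-7 signals were 4615, 4438 and 5042, each also above every Col-0 array, and its log2 fold change in *sahy1* against Col-7 was 0.13.

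Over the 10 genes, 9 had a value above 0 in *sahy1* against Col-0 and 10 in *sahy1* against Col-7, and the log2 fold changes had medians of 0.17 and 0.15. Over all probe sets tested the medians were 0.00 and 0.01, with 50.1% and 51% of values above 0. Without AT2G40010 and AT3G28500 the medians of the 8 other genes were 0.15 and 0.14, with 7 of 8 and 8 of 8 above 0. Every *sahy1* array was above every Col-0 array for 4 of the 10 genes and below for 0, where 17.5% of all probe sets tested were above and 16.5% below in this way. Against Col-7 the genes above were 3 and those below 0, where the shares over all probe sets were 15.6% and 15%. Since the mutant arrays led to the choice of the genes, nothing is read from these counts.

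The SAHY1OE arrays, which were not used in that choice, ask whether the stalk genes respond to more SAHY1 transcript. Of the 10 genes, 0 were called higher and 0 lower in SAHY1OE than in Col-7, where 0.0145% of all probe sets were called higher and 0.00723% lower. With so few calls over all probe sets, 0 of 10 would be usual for any 10 genes, so nothing is read from it. The limma adjusted p was 0.9999 for each, and 0 of 10 had an unadjusted p under 0.05. AT2G40010 had means of 264 ± 47.0 in SAHY1OE and 290.5 ± 53.9 in Col-7 (SD, n = 3 each), a log2 fold change of -0.14 with a 95% interval of -0.48 to 0.21. AT3G28500 had means of 57.6 ± 20.7 in SAHY1OE and 66.7 ± 24.9 in Col-7 (SD, n = 3 each), a log2 fold change of -0.22 with a 95% interval of -0.91 to 0.47. For both genes the arrays overlapped, and the interval for AT3G28500 reaches to 1.89-fold lower in a range of low signals. A fall from signals that low could hardly be seen.

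For the other 8 genes the 95% intervals in SAHY1OE against Col-7 reached at most 1.47-fold lower and 1.35-fold higher. The 3 P1 genes all had values below 0, at -0.01 for AT1G01100, -0.17 for AT4G00810 and -0.18 for AT5G47700, while the P0 genes AT3G09200 and AT3G11250 both stood at 0.09 to 0.10. Of the 4 P2 genes, AT2G27720 was above 0 at 0.10, and AT2G27710 and AT3G44590 were below at -0.13 and -0.03. In all, 3 genes were above 0 and 7 below, the median being -0.08 on the log2 scale, against 49.3% of values above 0 and a median of 0.00 over all probe sets. For 0 of the 10 genes did every SAHY1OE array lie above or below every Col-7 array, where 4.01% of all probe sets lay above and 4.73% below. None of these differences was detectable with 3 arrays in a group.

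Between the wild types, Col-7 against Col-0, the stalk genes were likewise not called, with 0 of 10 higher and 0 of 10 lower, where 1.27% of all probe sets were called higher and 0.535% lower. With these shares, nothing is read from the 0 of 10. The genes were divided evenly, 5 above 0 and 5 below, the median being 0.00 on the log2 scale, against 48.4% above 0 and a median of -0.01 over all probe sets. AT3G28500 was 1.89-fold lower in Col-7 (log2 fold change -0.92, 95% interval -1.61 to -0.22, limma adjusted p = 0.16), a difference that did not pass. AT3G44590 was 1.19-fold higher in Col-7 (log2 fold change 0.25, limma adjusted p = 0.328) and was the 1 stalk gene whose Col-7 arrays all lay above Col-0. The share of all probe sets with every Col-7 array above was 10.5% and with every one below 10.4%. AT2G40010 differed by 0.25 on the log2 scale (95% interval -0.09 to 0.60, limma adjusted p = 0.517). For AT3G28500 the wild-type signals were low and overlapped, although 2 of 3 Col-0 arrays reached the 40th percentile. The 17.1-fold and 9.06-fold values of *sahy1* against Col-7 and Col-0 are therefore not read as different in size.

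The labels were checked on SAHY1 itself. Its signals were 65.5, 7.00 and 143 in *sahy1*, against 451, 258 and 335.5 in Col-0, and 20572, 20069 and 20789 in SAHY1OE, against 284, 259.5 and 252 in Col-7. SAHY1 was lower in the mutant (log2 fold change -3.07, limma adjusted p = 0.0103) and higher in SAHY1OE (log2 fold change 6.27, limma adjusted p = 0.00418). Whether its probes lie within the part interrupted by the T-DNA was not determined. Of the root markers, 2 of 8 listed had a probe set of their own. PYK10, an abundant root beta-glucosidase, was detected at 17525 to 19531 in *sahy1* and 17921 to 20056 in Col-0. EXPA7, an expansin of root hairs, fell to 331 ± 74.4 in *sahy1*, against 680 ± 81.5 in Col-0 (mean and SD of 3 arrays, adjusted p = 0.000593 by limma). The part that a change in root hair cells might have in the stalk gene values was not tested, and none of the 6 markers of dividing cells or the 7 of green shoot cells listed could be read.

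Other proteins of the stalk and the factors that dock on it were taken as a list of 33 genes by general knowledge of these families. Of these, 12 had a probe set of their own and 11 passed the filter, and the genes of eEF2, eEF1A, ABCE, GCN2 and CK2 had none. Both genes of P3, the plant-specific stalk protein, had higher signals in every *sahy1* array than in every array of either wild type. Over all probe sets tested, 17.5% lay above Col-0 in this way and 15.6% above Col-7. The SAHY1OE arrays of AT5G57290, at 3873, 4338 and 4782, overlapped its *sahy1* arrays, while those of AT4G25890 did not. AT5G57290 had signals of 5614, 5158 and 4596 in *sahy1*, against 4293, 3690 and 3606 in Col-0. Its log2 fold change was 0.41 (limma adjusted p = 0.046), or 1.33-fold, which is below the fold needed for a call. AT4G25890 averaged 2332 ± 121 in *sahy1* and 1872 ± 154.5 in Col-0 (SD, n = 3 each), with 0.32 as its log2 fold change (adjusted p = 0.0975 by limma). Against Col-7 the values of *sahy1* were 0.39 for AT5G57290 and 0.25 for AT4G25890 (limma adjusted p = 0.0593 and 0.191).

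The uL11 genes, whose protein sits beside P0 at the base of the stalk, had log2 fold changes in *sahy1* against Col-0 of 0.07 for AT2G37190, 0.28 for AT3G53430 and 0.05 for AT5G60670 (limma adjusted p from 0.282 to 0.882). The 3 *sahy1* arrays of AT3G53430 spread from 9999 to 16908, while its Col-0 arrays lay between 10630 and 10746. A further P2 copy, AT5G40040, was low in every group, with means of 53.2 ± 14.7 in *sahy1* and 31.8 ± 22.4 in Col-0 (SD, n = 3 each), and did not pass the filter. The P2 gene AT3G28500 was thus not the only P2 copy with low signals in wild-type roots, but AT5G40040 stayed low in the mutant, with a highest signal of 69.7.

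None of the 11 listed partner genes was called in any of the 4 comparisons. The largest share of all probe sets called in 1 direction was 2.37%, for those higher in *sahy1* than in Col-0. Nothing is therefore read from the absence of calls among 11 genes. In *sahy1* against Col-0, 10 of 11 had a value above 0, the median being 0.17 on the log2 scale, where 50.1% of all probe sets were above 0, and for 4 of 11 every mutant array was above Col-0, where 17.5% of all probe sets were. Against Col-7, 7 of 11 were above 0 and 4 below, the median being 0.20, where 51% of all probe sets were above 0. The list was chosen with earlier results of these data known, and no alternative processing was run for its genes. Nothing is therefore read from these counts. The gene of the release factor eRF3, AT1G18070, had log2 fold changes of *sahy1* of 0.46 against Col-7 (limma adjusted p = 0.0327) and 0.20 against Col-0 (limma adjusted p = 0.35). The genes of eEF1B, eIF5B, GCN1 and the homologue of MRT4, a P0-like factor of ribosome assembly in yeast, had values from -0.09 to 0.21 against Col-0.

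The position of the 2 genes was compared with the signals of their neighbours, taken as the 10 measured genes on either side by locus code. Measured here means that a probe set paired with that gene alone passed the filter. Other genes can therefore lie between, and the nearest measured gene need not be the adjacent one. Of the 20 neighbours of AT2G40010 on chromosome 2, 0 were called in *sahy1* against Col-0. Over all probe sets tested, 2.37% were called higher and 1.76% lower in that comparison. The nearest measured genes, AT2G39960 and AT2G40110, had log2 fold changes of 0.29 and -0.59 (limma adjusted p = 0.648 and 0.0299). AT2G40230, the fifth gene after it, had a log2 fold change of -0.91 against Col-0 and was called lower against Col-7 (log2 fold change -1.07, limma adjusted p = 0.000392). With such shares over all probe sets, a count of 0 among 20 genes is ordinary, so nothing is read from it.

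The neighbours of AT3G28500 on chromosome 3 differed in more cases. In *sahy1* against Col-0, 4 of 20 were called higher and 3 lower, where 2.37% of all probe sets were called higher and 1.76% lower. In Col-7 against Col-0, 2 were called higher and 2 lower, where the shares were 1.27% and 0.535%. In *sahy1* against Col-7, 0 of 20 were called in either direction, where the shares were 1.34% and 1.02%, so nothing is read from this 0. The 4 higher genes lay together at 6 to 9 genes before AT3G28500, with log2 fold changes of *sahy1* against Col-0 of 1.23 for AT3G27930, 1.61 for AT3G27950, 1.13 for AT3G28040 and 1.52 for CSLC04 (AT3G28180), a synthase of the xyloglucan backbone. Col-7 stood above Col-0 at the same genes by 1.07, 0.96, 0.81 and 1.13 in that order. The lower genes AT3G28310 and AT3G28320 had log2 fold changes against Col-0 of -4.50 and -3.63 in *sahy1* and of -4.98 and -3.33 in Col-7. Both comparisons share the Col-0 arrays. Through which groups AT3G28310 and AT3G28320 passed the filter was not examined, and a gene that passes through Col-0 alone had to differ from it.

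AT3G28500 itself was higher in *sahy1* than in either wild type. Its Col-7 arrays overlapped the Col-0 arrays at low signals (log2 fold change -0.92, limma adjusted p = 0.16), so no direction is read between the wild types. The nearest measured gene before it, AT3G28480, had log2 fold changes of -0.05 in *sahy1* and -0.18 in Col-7 against Col-0, and the nearest after it, AT3G28550, had -1.45 (called lower, limma adjusted p = 0.000687) and -0.87 (limma adjusted p = 0.0479). Against Col-7, where the neighbours had log2 fold changes of *sahy1* between -0.80 and 0.66, AT3G28500 had 4.10.

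**Figure D3:**
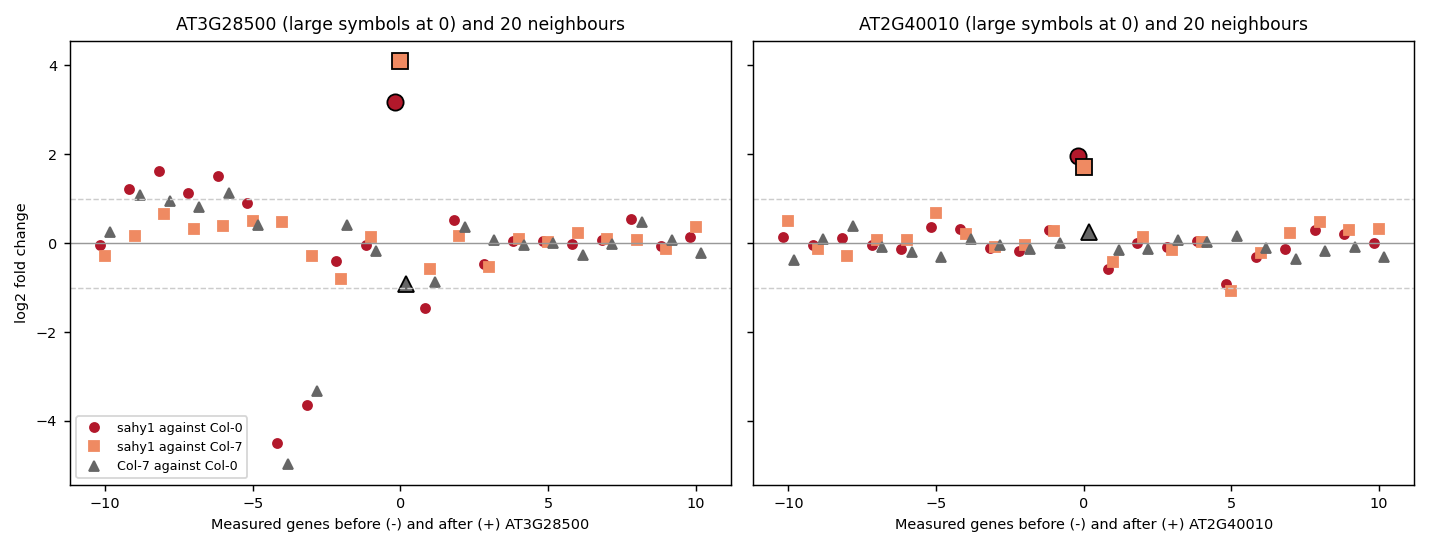
Log2 fold changes (vertical axis, dashed lines at 2-fold) of AT3G28500 and AT2G40010 (large symbols at 0) and of the 10 measured genes before and after each in locus order (horizontal axis), for *sahy1* against Col-0, *sahy1* against Col-7 and Col-7 against Col-0. Around AT3G28500 several genes differ from Col-0 in both *sahy1* and Col-7, while AT3G28500 is high in *sahy1* only, and around AT2G40010 the neighbours lie between -1.07 and 0.67.

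The genes whose signals were most like those of the 2 stalk genes were found by Pearson's r of log2 signals over the 12 arrays, as a description with no test. The arrays of the mutant set much of each r, since they lie apart from the rest. For AT2G40010 the highest values were 0.98 for AT1G67760, 0.96 for AT4G31890 and for AT2G34340, and 0.95 for GSTU25, a glutathione S-transferase, and for NDB4, an NADH dehydrogenase of the mitochondrial outer face of the inner membrane. NDB4 averaged 208 ± 15.2 in *sahy1*, 4.00 ± 1.76 in Col-0, 6.15 ± 3.08 in SAHY1OE and 5.18 ± 2.32 in Col-7 (SD, n = 3 each). It thus passed the filter on low signals through *sahy1* alone, and nothing is read from its likeness. The signal of GSTU25 averaged 3400 ± 331 in *sahy1*, 1142 ± 56.9 in Col-0, 1156 ± 119 in SAHY1OE and 1188 ± 138 in Col-7 (SD, n = 3 each). Like AT2G40010, it was high in the mutant and level across the 3 other groups.

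For AT3G28500 the 5 genes were AT1G73620, AT3G16370, AT1G52050, AT5G59240 and AT2G43480, with r from 0.94 to 0.95. AT5G59240 encodes a protein of the S8e family of the small ribosomal subunit and averaged 697 ± 95.7 in *sahy1*, 326 ± 24.9 in Col-0, 203 ± 18.3 in SAHY1OE and 261 ± 13.8 in Col-7 (SD, n = 3 each). It shared with AT3G28500 the highest group mean in *sahy1*. No order is read among the 3 other groups of AT3G28500, whose signals were low. AT2G40010 and AT3G28500 had an r of 0.90 with each other, and neither was among the 5 genes most like the other. Both stood out through the *sahy1* arrays, and AT3G28500 passed the filter through them alone, so a high r was fixed in advance. Nothing is read from this r or from the likeness of the 5 genes to AT3G28500.

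**Figure D4:**
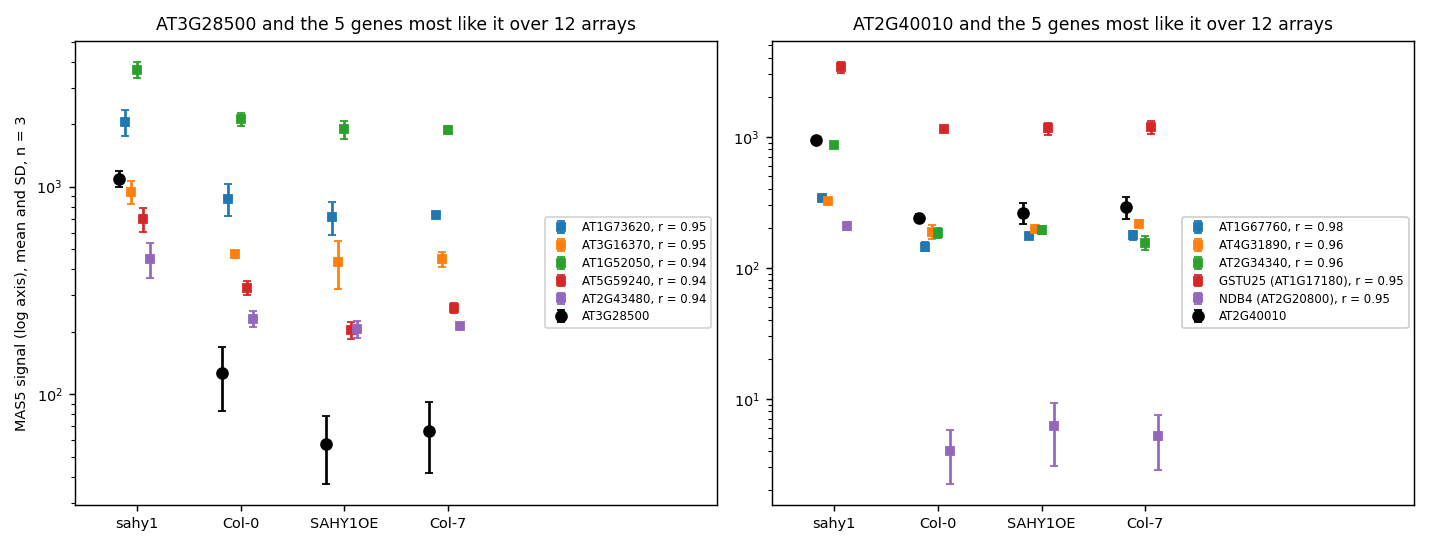
Mean signals (vertical log axis, bars for the SD of 3 arrays) of AT3G28500 and AT2G40010 (black) and of the 5 genes with the highest Pearson's r to each over 12 arrays, in *sahy1*, Col-0, SAHY1OE and Col-7. All plotted genes have their highest mean in *sahy1*, and lower means in the 3 other groups, so that r is set mostly by the mutant arrays.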

How the data were processed

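The authors deposited linear MAS5 signals (intensity per probe set of the ATH1 array), each array having been scaled to a trimmed mean of 500. The deposited design text names GeneSpring GX 10.0.1, and a MAS5 version was not given in the sources used here. Median signals lay between 192 and 204. Arrays have no sequencing depth, so the 3 of them in each group limit the precision. Signals under 1 (46 to 334 per array) were set to 1 and log2 was taken.

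Of 22810 probe sets, 64 controls were left out, and 13834 of 22746 were kept because in 1 or more groups each of the 3 arrays gave a signal at or above its own 40th percentile. Group means were fitted over 12 arrays with limma 3.58.1 (eBayes, Benjamini-Hochberg) in R 4.3.3, and the fit was tested on simulated data. Calls were made at a fold above 2 and an adjusted p under 0.05. Standard errors and 95% intervals come from this fit, and fold values are ratios of geometric means. The study's methods name an unpaired test, which was run as an alternative. The others were quantile normalization, median centring, adding 32, a 60th percentile filter, no filter, separate fits of each pair of groups, a replicate block, adjusted p alone, and leaving out each array. Python 3.11.15, pandas 2.3.3 and matplotlib 3.10.9 made tables and plots.

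A gene is named where the platform annotation pairs a probe set with it alone, which held for 13513 probe sets. Another 503 stand for several genes, and 8730 have no gene in that annotation. The gene table (RefSeq, TAIR10.1) gave chromosomes and gene order. All 10 stalk genes are named, with the P3 and uL11 genes, other listed genes called in any comparison, the 5 genes most like each stalk gene called in *sahy1* against Col-0, its nearest measured genes and the called ones among its 20 neighbours. The partner genes of eRF3 and P2 copy AT5G40040 and the root markers were named after their values were seen. A count over the other cytosolic ribosomal proteins was not made. The names in the gene table identify 48 such genes, of which 0 had a probe set paired with them alone, and they do not identify others that were measured, such as AT5G59240 and the uL11 genes. The probes of each set were not used here, so cross-hybridization between gene copies was not tested. Members and lists were chosen with earlier results of these data known.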

Additional observations from a re-analysis of the deposited data

How the results depend on the processing

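The counts of stalk genes called were 2 in *sahy1* against Col-0, 2 in *sahy1* against Col-7, 0 in SAHY1OE against Col-7 and 0 in Col-7 against Col-0, and they ranged from 2 to 2, 2 to 2, 0 to 0 and 0 to 0 when each array was left out in turn. With the methods' unpaired test the count in *sahy1* against Col-7 was 1, since AT2G40010 no longer passed. With adjusted p alone, 3 genes were called in *sahy1* against Col-0, AT3G44590 being added, but its adjusted p was above 0.05 with no filter, median centring, 2 groups alone, the unpaired test, and when *sahy1* replicate 1, *sahy1* replicate 3, Col-7 replicate 1, Col-0 replicate 1 or Col-0 replicate 2 was left out. Across all settings AT2G40010 was between 3.55-fold and 3.99-fold higher in *sahy1* than in Col-0 and between 2.91-fold and 3.48-fold higher than in Col-7. AT3G28500 was between 7.25-fold and 10.3-fold higher than in Col-0 and between 11.6-fold and 20.8-fold higher than in Col-7, and it could not be fitted for SAHY1OE against Col-7 or Col-7 against Col-0 with 2 groups alone, where it failed the filter. The 8 other genes lay between -0.15 and 0.44 in *sahy1* against Col-0 under every setting run. Of these 168 values, 8 had another sign than in the main fit, and against Col-7 it was 2 of 168. AT2G27710, for example, stood at -0.03 against Col-0 with quantile normalization. The count of stalk genes above 0 thus depends on the setting.

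Replicate numbers were not taken to pair the arrays. Deviations from the group means of arrays with the same number correlated between -0.02 and 0.23 in *sahy1* against Col-0, between -0.10 and 0.09 in *sahy1* against Col-7, between 0.06 and 0.235 in SAHY1OE against Col-7 and between 0.04 and 0.24 in Col-7 against Col-0, and the arrays that correlated best with their own number were 2, 0, 3 and 3 of 3. With the replicate block the counts of stalk genes called were 2, 2, 0 and 0 in the same comparisons.

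Detection calls were not used here and background was not measured, and folds of AT3G28500 rest on low reference signals. Replicates are 3 per group, and an exact permutation test of 3 against 3 arrays cannot go below 0.1, so tests rest on the spread that limma shares across probe sets.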
